A study of Canis lupus familiaris with 58 samples.

Results

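Marginal zone lymphoma (MZL) was set against diffuse large B-cell lymphoma (DLBCL) in lymph node biopsies of pet dogs. The comparison took every array whose source was a lymph node and whose veterinary pathology diagnosis was MZL or DLBCL, whatever its immunoglobulin status. This rule gave 39 of the 58 arrays of the series, 7 of MZL and 32 of DLBCL, each from a different dog. The other 19 arrays came from fine needle aspirates with no diagnosis given and entered no comparison between the diagnoses.

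All dogs were privately owned, all biopsies preceded treatment, and every tumour had been called a B-cell lymphoma by flow cytometry or immunohistochemistry. Total RNA of the whole biopsy was labelled and hybridised to an Affymetrix canine expression array, so tumour cells, T cells, stroma and blood vessels were measured together. In such bulk tissue, fewer cells of a type and less RNA per cell cannot be told apart. The labels also state whether mutation of the rearranged immunoglobulin heavy variable gene (IGHV) was ongoing or static. Among dogs with a known state, it was ongoing in 4 of 5 with MZL and in 12 of 30 with DLBCL (Fisher's exact test, two-sided p = 0.156), and 2 dogs of each diagnosis had no state.

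Marginal zone B cells lie at the rim of the follicle and answer antigen without needing a germinal centre. Nodal marginal zone lymphoma is usually a slowly growing disease, and its cells often surround what remains of normal follicles. DLBCL is an aggressive tumour of large, dividing B cells that replaces the node, and in people it is divided into forms that resemble germinal centre cells or activated B cells. Both contain T cells of the node, among them follicular helper cells, which assist B cells, and regulatory cells, which restrain them.

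Values are log2 signals as normalised by the authors, so a difference of 1 is a doubling, and each of 15115 genes is represented by 1 probe set. The arrays had closely similar medians, from 7.11 to 7.20. Degradation of RNA was read from how far control probes at the 3′ end of GAPDH and ACTB exceeded those at the 5′ end, a log2 difference that ran from 0.34 to 0.81 in MZL and from 0.13 to 0.72 in DLBCL, apart from 1 DLBCL dog at 3.77. The number of arrays, 7 in the smaller group, limits the precision of every value.

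No single gene separated the diagnoses after correction for the number of genes tested. With limma's moderated test and Benjamini-Hochberg adjustment, 0 of 15115 genes had an adjusted p under 0.05, and the smallest adjusted p was 0.999964. At an unadjusted p under 0.05 there were 176 genes, 1.16% of those tested, of which 105 had the higher mean in MZL (0.695%) and 71 the lower (0.47%). Evenly spread p-values would put about 756 genes under 0.05, well above the 176 found. A rank-sum test with exact p-values likewise gave 0 genes after adjustment, and 229 at an unadjusted p under 0.05. In 0 genes did the 7 MZL values lie wholly outside the 32 DLBCL values. The genes described from here on are therefore the leading differences of a comparison in which none passed the threshold.

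The absence of calls came with fairly narrow intervals. The 95% interval of the difference lay within a doubling either way for 97.5% of genes, and the median standard error was 0.099. The median size of a difference was 0.0496, and 95% of genes differed by less than 0.234. The means were at least 1.5-fold apart for 0.523% of genes, 56 with the higher mean in MZL (0.37%) and 23 with the lower (0.152%).

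Whole profiles did not group the 7 MZL arrays. The median Pearson correlation over all genes was 0.976 for the 21 pairs of MZL arrays, 0.975 for the 224 pairs of an MZL and a DLBCL array, and 0.972 for the 496 DLBCL pairs. For 6 of 7 MZL arrays the most similar array was a DLBCL, and for 9 of 32 DLBCL arrays it was an MZL. Because 32 of the 39 arrays were DLBCL, most nearest arrays would be DLBCL even for neighbours drawn at random. These counts alone therefore do not show that MZL resembles DLBCL. On the first principal component, which held 14.8% of the variance, MZL scores ran from -21.2 to 15.7 within the DLBCL range of -31.0 to 52.3. MZL spread less than DLBCL in 72.8% of genes, with a median SD of 0.192 against 0.243, although an SD of 7 values tends to run below one of 32.

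**Figure D1:**
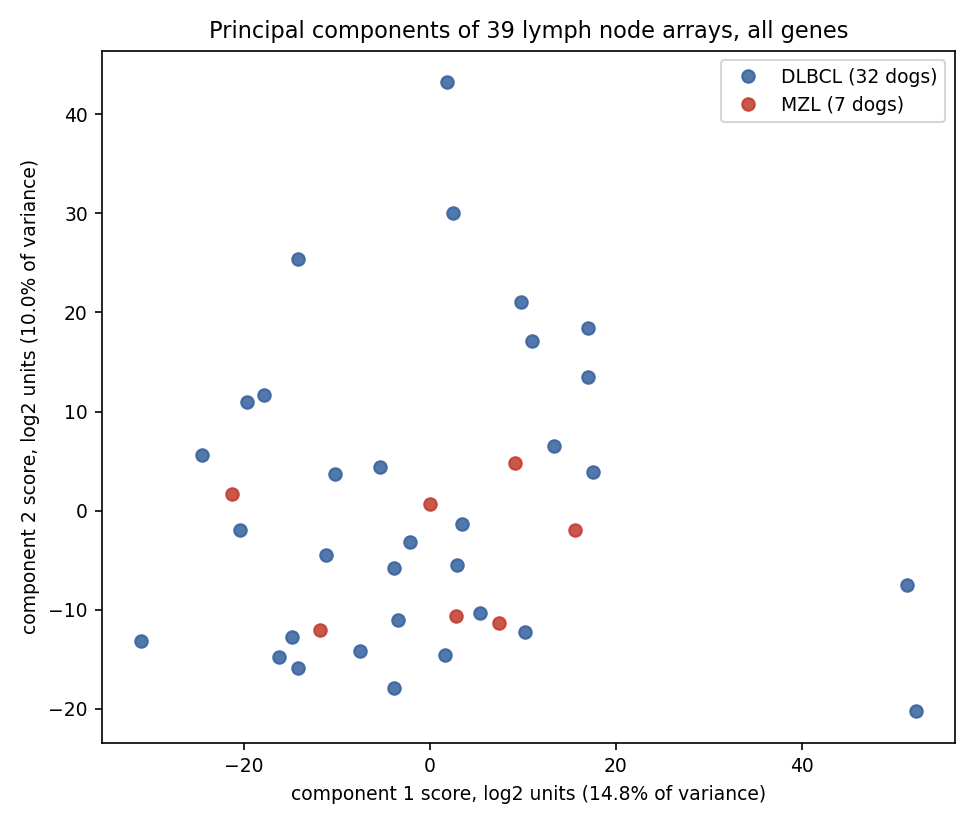
Scores of the 39 lymph node arrays on the first and second principal components of all genes, in log2 units, 1 point per dog. The 7 MZL dogs (red) lie inside the cloud of 32 DLBCL dogs (blue) on both axes.

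The list with the most members at an unadjusted p under 0.05 was that of T cells. Of 25 measured genes of a T-cell list, 20 had the higher mean in MZL, with a median difference of 0.19 beside -0.007 over all genes, where 46.1% had the higher mean and 53.9% the lower. In this list 6 genes reached an unadjusted p under 0.05, all higher in MZL, against 0.695% of all genes. They were SH2D1A, CD27, LEF1, CD7, CD8B and TRAT1. Other members ranged widely. CD3E, a chain of the receptor complex, differed by +0.19 at the probe set used (p = 0.09) and by 0.63 at its other one, the helper co-receptor CD4 by -0.06 (p = 0.435) and the adhesion receptor CD2 by -0.28 (p = 0.355).

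SH2D1A encodes SAP, the adaptor through which SLAM receptors signal when T cells hold on to B cells. Its lowest, median and highest signals were 6.82, 7.49 and 9.44 in MZL and 6.06, 6.89 and 8.30 in DLBCL. Its mean difference was +0.79 ± 0.26 (SE), or 1.73-fold (unadjusted p = 0.00361). The groups overlapped, but 6 of 7 MZL dogs were above the DLBCL median.

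CD27, a receptor of the TNF family on T cells and memory B cells, had a lowest, median and highest signal of 7.04, 7.89 and 9.43 in MZL against 6.39, 7.27 and 8.74 in DLBCL. The difference was +0.67 ± 0.26 (SE, unadjusted p = 0.015), and 2 probe sets of 2 agreed in sign. LEF1, a transcription factor of the Wnt pathway in naive T cells, differed by +0.60 ± 0.27 (SE, unadjusted p = 0.03). CD7, a surface marker of T and natural killer cells, differed by +0.45 ± 0.17 (SE), and CD8B, a chain of the co-receptor of killer T cells, by +0.43 ± 0.18 (SE).

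CTLA4 is the inhibitory receptor of regulatory and activated T cells. Its lowest, median and highest signals were 5.18, 6.12 and 7.83 in MZL and 4.78, 5.39 and 6.89 in DLBCL, and 2 MZL dogs lay above every DLBCL dog. The difference was +0.72 ± 0.25 (SE, unadjusted p = 0.00572) at the probe set used and +0.20 at its other one. TNFRSF4 (OX40), a co-stimulatory receptor of activated T cells, differed by +0.34 ± 0.12 (SE, unadjusted p = 0.00615). TOX, a transcription factor of follicular helper and exhausted T cells, had a lowest, median and highest signal of 5.67, 7.46 and 9.77 in MZL against 4.18, 5.71 and 9.28 in DLBCL, and its 3.08-fold higher mean in MZL was the largest difference among genes with a symbol other than a LOC number.

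CTLA4, TNFRSF4, SH2D1A and TOX belong to a list of 21 measured genes of follicular helper and regulatory T cells, of which 14 had the higher mean in MZL. The median difference of the list was only 0.063, and several of its best known members had small differences. FOXP3, the master regulator of regulatory T cells, differed by +0.06 (p = 0.289), CXCR5, which guides cells into follicles, by -0.02 (p = 0.934), and PDCD1, which encodes PD-1, by +0.04 (p = 0.718). Averaged over the list, all 7 MZL dogs stood above the DLBCL median, from 7.28 to 7.81 in MZL against a DLBCL median of 7.18 and range of 6.89 to 7.62. This average includes TOX, SH2D1A, CTLA4 and TNFRSF4, whose differences were well above the list median. It is therefore not separate from the values of those genes.

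**Figure D2:**
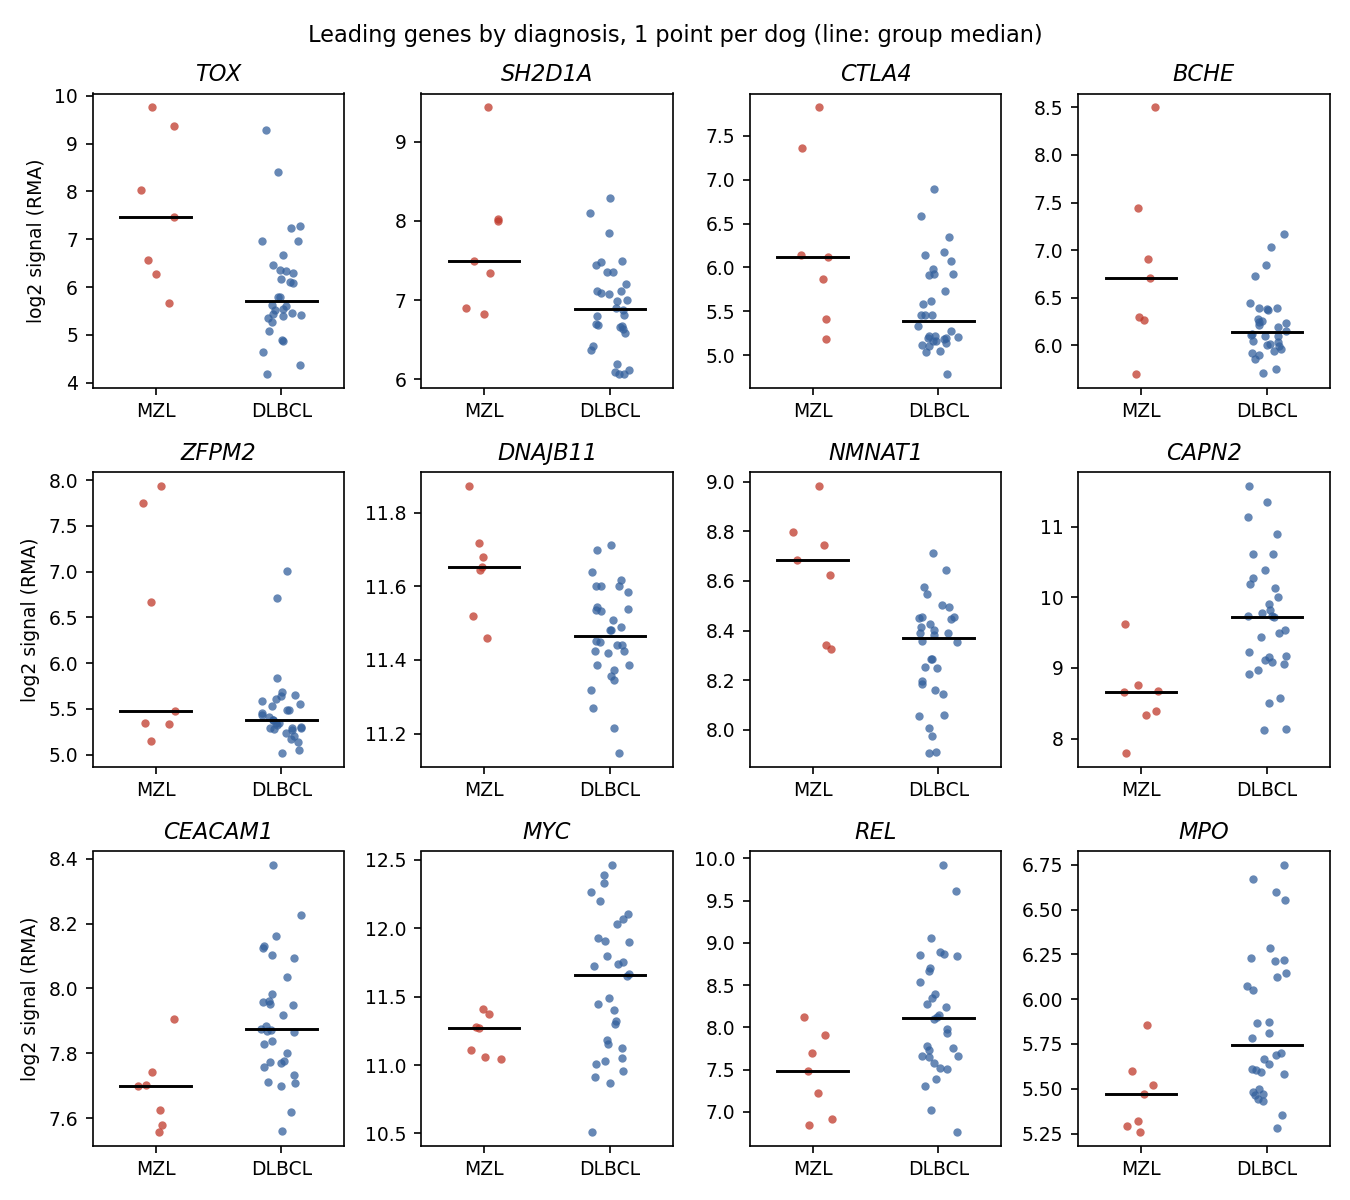
Log2 signal of 12 genes by diagnosis, 1 point per dog, with a line at each group's median (7 MZL dogs in red, 32 DLBCL dogs in blue). The groups overlap for every gene, but 6 of 7 MZL dogs lie above the DLBCL median for TOX, SH2D1A, CTLA4, BCHE and DNAJB11, and 0 of 7 for CAPN2 and MYC.

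Genes of killer lymphocytes were mostly higher in MZL on average, with 14 of 17 having the higher mean and a median difference of 0.30. Only PTGDR, a prostaglandin receptor of natural killer and activated T cells, reached an unadjusted p under 0.05, with a difference of +0.46 ± 0.15 (SE, p = 0.00454). The granzyme gene GZMK differed by +0.70 ± 0.57 (SE, p = 0.229) and KLRD1, the CD94 receptor of natural killer cells, by +0.69 ± 0.37 (SE, p = 0.0707), while PRF1, the pore-forming protein of their granules, differed by -0.06 (p = 0.577).

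These values rested unevenly on the dogs. The list means of T cells were 7.68, 7.62, 7.92, 8.61, 7.91, 8.00 and 7.42 in MZL dogs 1 to 7, against 7.23 to 8.35 in DLBCL, so MZL dog 4 lay above every DLBCL dog and MZL dog 7 below the DLBCL median of 7.66. Without MZL dog 4 the median difference of the T-cell list was 0.076 and that of the killer lymphocyte list 0.085. Without MZL dog 7 the T-cell median was 0.26. Without MZL dog 4 SH2D1A differed by +0.51 and CD27 by +0.44, and without MZL dog 3 CTLA4 differed by +0.46.

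Probe sets for the T-cell receptor itself showed the same direction. The array holds 16 genes that the RefSeq gene table classes as variable or constant segments of antigen receptors; they carry LOC numbers, and they were picked out after their values had been seen. T-cell receptor genes are assembled from such segments in each T cell, and constant regions are present in every receptor of their class. All 4 segments that lie in T-cell receptor loci had the higher mean in MZL, each at an unadjusted p under 0.05 by limma, with differences from 0.40 to 1.17. Of all genes 0.695% were higher in MZL at that threshold.

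LOC609053, a constant region between EPHB6 and PRSS2, where the beta chain locus lies, had a lowest, median and highest signal of 5.06, 6.32 and 8.24 in MZL against 3.82, 5.26 and 8.02 in DLBCL. The difference was +1.17 ± 0.39 (SE), or 2.24-fold (unadjusted p = 0.00446). The neighbouring beta constant region LOC480788 gave 9.11, 10.41 and 11.87 in MZL and 8.31, 9.65 and 11.17 in DLBCL, a difference of +0.86 ± 0.35 (SE, unadjusted p = 0.0182). Both constant regions were highest in MZL dog 4, at 8.24 and 11.87, and lowest in MZL dog 7, at 5.06 and 9.11. The pair are close copies of each other in mammals, so signals may be shared between them.

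A variable segment between CHGA and DAD1, where the alpha and delta chain locus lies (LOC607750), differed by +0.40 ± 0.13 (SE, unadjusted p = 0.00483). The constant region between AMPH and STARD3NL, where the gamma chain locus lies (LOC609263), gave 3.39, 3.77 and 5.17 in MZL and 3.09, 3.51 and 4.77 in DLBCL, a difference of +0.45 ± 0.17 (SE, unadjusted p = 0.0104). For this gamma segment MZL dogs 4 and 6 stood at 4.84 and 5.17, above all 32 DLBCL dogs, and the other 5 MZL dogs lay between 3.39 and 3.79. Without MZL dog 6 its difference was +0.26. Its exact rank-sum p was 0.0583, and most of its signals were near the lowest value on any array, 2.82.

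Immunoglobulin segments differed mainly from dog to dog. A B-cell tumour grows from 1 cell and carries the variable segments which that cell had joined. Of 11 immunoglobulin segments, 10 variable and 1 constant, 8 had the higher mean in MZL, with a median difference of 0.058, and 3 reached an unadjusted p under 0.05. All 3 were higher in MZL, as were 0.695% of all genes at that threshold. These counts rest on the probe set used for each segment. For the lambda segment LOC486377 that probe set differed by -0.03, but 2 of its 3 probe sets were higher in MZL. Their differences reached +1.56, and the smallest unadjusted p of the 3 by limma was 0.00321. LOC607467, a heavy chain variable segment beside TMEM121, had a lowest, median and highest signal of 8.13, 14.14 and 14.36 in MZL against 7.27, 8.69 and 14.48 in DLBCL. Signals above 12 were found in 5 of 7 MZL dogs and in 11 of 32 DLBCL dogs, and the difference of means, +2.04 ± 1.15 (SE), was the largest of all 15115 genes (unadjusted p = 0.0824). Its 14 probe sets differed by -0.16 to 2.24, with unadjusted p from 0.00354 to 0.952 by limma, and 12 of them were higher in MZL. Among dogs with ongoing IGHV mutation alone the difference was +0.69 (p = 0.659).

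LOC612173, a variable segment of the lambda light chain locus, stood at 4.49, 5.55 and 11.51 in MZL and at 4.09, 5.28 and 8.19 in DLBCL. MZL dogs 2, 3 and 4, at 9.42, 8.64 and 11.51, were above all 32 DLBCL dogs, and the other 4 were between 4.49 and 5.55. The limma p of its difference of +1.46 ± 0.58 (SE) was 0.0151, whereas the exact rank-sum p was 0.378, and without MZL dog 4 the difference was +0.73. The lambda segments LOC491363 and LOC606893 were each set apart by 1 dog, MZL dog 5 at 6.96 and MZL dog 4 at 6.97, and a lambda constant region, LOC608238, differed by -0.03 (p = 0.705).

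**Figure D3:**
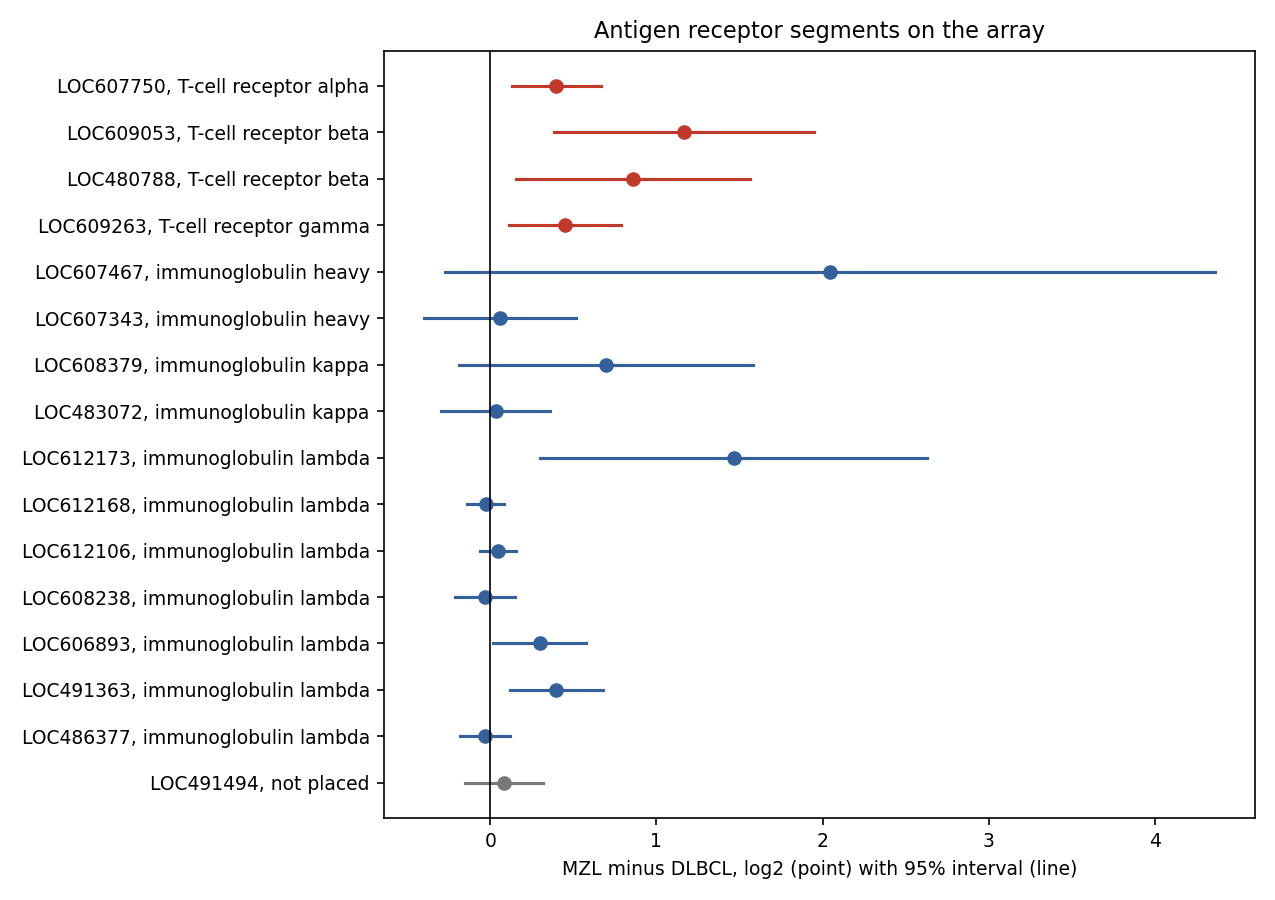
Difference of means, MZL minus DLBCL, on the log2 scale with its 95% interval, for 16 antigen receptor segments on the array, labelled by locus. The 4 T-cell receptor segments (red) lie between 0.40 and 1.17, and the immunoglobulin segments (blue) between -0.03 and 2.04, with the widest interval for LOC607467.

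The mean of the T-cell list was then added to the model, leaving out of that mean any gene being tested. Unadjusted p-values under 0.05 were then obtained for 203 genes, of which 90 were among the 176. The difference of CTLA4 was then +0.37 (p = 0.0717) in place of +0.72, that of CD27 +0.27 (p = 0.165) in place of +0.67, and that of LOC480788 +0.34 (p = 0.218) in place of +0.86. SH2D1A had +0.48 (p = 0.0314) in place of +0.79, and TOX +1.01 (p = 0.019) in place of +1.62. Outside the T-cell lists, NMNAT1 had +0.34 in place of +0.33, ZFPM2 +0.91 in place of +0.76 and CAPN2 -0.95 in place of -1.09. The NF-kB gene REL had -0.51 (p = 0.0812) in place of -0.69 (p = 0.0167). The granulocyte gene MPO had -0.33 (p = 0.0533) in place of -0.39 (p = 0.0167).

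Several leading genes have no established place in lymphocytes. NMNAT1, the nuclear enzyme that makes NAD, had the smallest p of all genes. Its lowest, median and highest signals were 8.33, 8.69 and 8.98 in MZL and 7.90, 8.37 and 8.71 in DLBCL, a difference of +0.33 ± 0.089 (SE), or 1.26-fold (unadjusted p = 0.000669). Of its 3 probe sets 2 were higher in MZL, and among dogs with ongoing IGHV mutation alone its difference was +0.10 (p = 0.427).

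BCHE encodes butyrylcholinesterase, a secreted esterase. Signals of 5.70, 6.71 and 8.51 in MZL compared with 5.71, 6.14 and 7.17 in DLBCL, and the 2 highest values of all 39 dogs, 8.51 and 7.45, were in MZL dogs 5 and 1. The difference was +0.62 ± 0.20 (SE, unadjusted p = 0.00321), and without MZL dog 5 it was +0.34. All 4 probe sets had the same sign, with differences from +0.14 to +1.54. ZFPM2, a cofactor of GATA transcription factors, was high in MZL dogs 1, 5 and 7, at 7.75, 6.67 and 7.94, and between 5.15 and 5.48 in the other 4. Its difference of +0.76 ± 0.25 (SE) had an unadjusted p of 0.00418 by limma and 0.271 by the exact rank-sum test, and without MZL dog 7 it was +0.47.

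SPPL2A is the protease that trims the invariant chain CD74 in B cells. Signals of 9.61, 10.01 and 10.13 in MZL stood against 8.84, 9.66 and 10.22 in DLBCL, a difference of +0.32 ± 0.11 (SE, unadjusted p = 0.00409), with only MZL dog 6 below the DLBCL median. DPP4, the peptidase CD26 of activated T cells, differed by +0.46 ± 0.15 (SE, unadjusted p = 0.00452). SULT1B1, a sulfotransferase, differed by +0.38 ± 0.13 (SE), with MZL dog 1 at 6.26 and the next MZL dog at 5.05, and without MZL dog 1 by +0.13. PHLDB2, which helps to anchor the cell cortex, differed by +0.25 at the probe set used, but only 1 of its 4 probe sets was higher in MZL.

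Chaperones of the endoplasmic reticulum fold secreted and surface proteins, and 2 of their 27 measured genes reached an unadjusted p under 0.05. Both had the higher mean in MZL, as did 0.695% of all genes at that threshold. DNAJB11, a partner of the chaperone BiP, gave 11.46, 11.65 and 11.87 in MZL and 11.15, 11.47 and 11.71 in DLBCL, a difference of +0.18 ± 0.058 (SE), or 1.13-fold (unadjusted p = 0.00324). HSPA5, which encodes BiP, differed by +0.18 ± 0.09 (SE, unadjusted p = 0.0463), and DNAJB9, another partner, by +0.34 ± 0.17 (SE, unadjusted p = 0.0545). In each of these 3 genes 5 or 6 of the 7 MZL dogs were above the DLBCL median. Over the list 23 genes had the higher mean in MZL and 4 the lower, among them HERPUD1 at -0.24, with a median difference of 0.087. Among dogs with ongoing IGHV mutation alone that median was -0.006. Plasma cell genes, whose programme shares this machinery, had the higher mean in 9 of 13 cases, with XBP1, which drives it, at +0.25 ± 0.14 (SE, p = 0.0825).

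Of 47 ribosomal protein genes 44 had the higher mean in MZL, beside 46.1% of all genes. These genes differed by little, with a median of 0.044. Their list mean was between 13.90 and 13.97 in MZL, and all 7 dogs were above the DLBCL median of 13.88 within a DLBCL range of 13.64 to 14.00. No ribosomal protein gene reached an unadjusted p under 0.05 by limma, a threshold that 1.16% of all genes reached. RPL24 came nearest, with a difference of +0.10 ± 0.055 (SE, p = 0.0665).

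**Figure D4:**
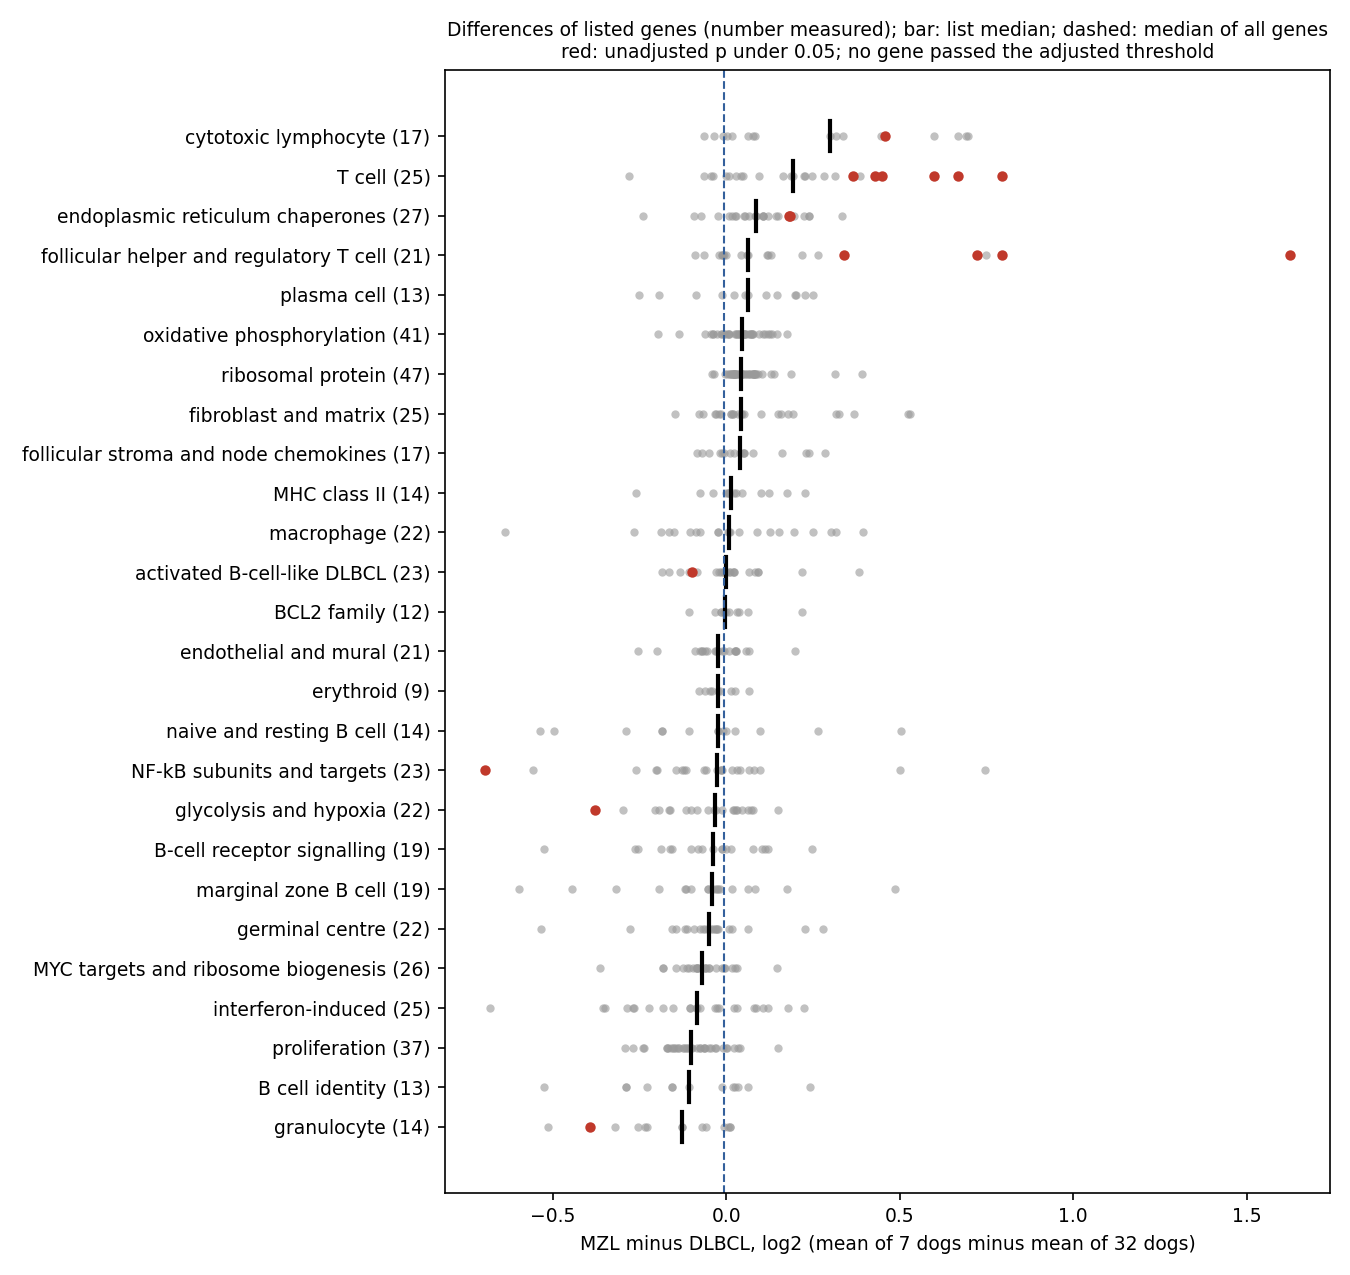
Difference of means, MZL minus DLBCL, on the log2 scale for every measured gene of 26 lists, 1 point per gene, with a bar at each list's median and a dashed line at the median of all genes, -0.007. Red points have an unadjusted p under 0.05; 6 lie in the T-cell list, and no gene passed after adjustment.

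Lower signals in MZL were led by CAPN2, a calcium-dependent protease. Its lowest, median and highest signals were 7.79, 8.66 and 9.63 in MZL and 8.12, 9.73 and 11.58 in DLBCL. All 7 MZL dogs were below the DLBCL median, and MZL dog 7, at 9.63, was well above the other 6. The difference of -1.09 ± 0.34 (SE, unadjusted p = 0.00237) had the same sign at all 3 probe sets, which ranged from -1.09 to -0.22.

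The next genes by p-value differed by less. CEACAM1, an inhibitory adhesion receptor, stood at 7.56, 7.70 and 7.91 in MZL and 7.56, 7.87 and 8.38 in DLBCL, a difference of -0.22 ± 0.074 (SE, unadjusted p = 0.00561). UPB1, which breaks down pyrimidines, differed by -0.64 ± 0.23 (SE, unadjusted p = 0.00806) and MID2, a ubiquitin ligase bound to microtubules, by -0.60 ± 0.22 (SE, unadjusted p = 0.00846), and for both genes 0 of 7 MZL dogs exceeded the DLBCL median. The other 8 of the 12 genes with the smallest p in this direction were REG3A, LRFN2, THUMPD1, LENG8, ZMIZ1, WDR62, ZNF630 and WASF2, with differences from -0.25 to -0.13. For REG3A 1 of 3 probe sets had the opposite sign.

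REL, the NF-kB subunit c-Rel that is often gained in human DLBCL, gave 6.84, 7.49 and 8.12 in MZL and 6.76, 8.11 and 9.92 in DLBCL. The difference was -0.69 ± 0.28 (SE), or 0.618-fold (unadjusted p = 0.0167), with only 1 of 7 MZL dogs above the DLBCL median. The NF-kB list as a whole had 15 of 23 genes lower in MZL and a median of -0.028. In it, CD83 differed by -0.56 ± 0.33 (SE, p = 0.104) and LTB, a lymphotoxin subunit, by +0.50 ± 0.32 (SE, p = 0.123), in opposite directions.

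MYC, the transcription factor of growth, stood at 11.04, 11.27 and 11.41 in MZL and 10.51, 11.66 and 12.46 in DLBCL. All 7 MZL dogs were below the DLBCL median, in a narrow band that the DLBCL dogs exceeded on both sides, and the difference was -0.36 ± 0.19 (SE, unadjusted p = 0.0666). Of 26 measured genes of a list of MYC and its targets in ribosome making, 22 had the lower mean in MZL, with a median of -0.070. Of 37 measured proliferation genes 32 were lower in MZL, with a median of -0.10, and 0 reached an unadjusted p under 0.05. Over all genes 53.9% had the lower mean and 1.16% reached that threshold. RRM2, which supplies nucleotides for DNA synthesis, differed by -0.27 ± 0.20 (SE, p = 0.192), TOP2A by -0.17 (p = 0.466) and PLK1 by -0.24 (p = 0.404). The proliferation list mean was 10.96 in MZL dog 7 and 9.84 to 10.58 in the other 6, against 9.75 to 11.38 in DLBCL. Without MZL dog 7 the median difference of the list was -0.22, and without MZL dog 3 it was -0.026.

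Genes of marginal zone B cells mostly had the lower mean in the MZL biopsies. Of 19 measured genes of marginal zone B cells only 5 had the higher mean in MZL, with a median of -0.040, and 0 reached an unadjusted p under 0.05. Over all genes 46.1% had the higher mean and 1.16% reached that threshold, so a count of 0 among 19 says little. CD1C, a lipid-presenting molecule of these cells, stood at 7.16, 8.97 and 10.25 in MZL and 6.69, 9.57 and 12.37 in DLBCL, a difference of -0.60 ± 0.49 (SE, p = 0.234). NOTCH2, the receptor that specifies the lineage, differed by -0.12 ± 0.15 (SE, p = 0.421), and S1PR1, which holds cells at the rim of the follicle, by +0.49 ± 0.49 (SE, p = 0.323). CXCR3, also of this list, differed by +0.17 ± 0.15 (SE, p = 0.266), with 6 of 7 MZL dogs above the DLBCL median. CR2 had no probe set paired with that symbol alone.

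Germinal centre genes were lower in MZL for 17 of 22 members, with a median of -0.049 and 0 at an unadjusted p under 0.05. Over all genes 53.9% had the lower mean and 1.16% reached that threshold, so a count of 0 among 22 says little. BCL6, the repressor that sustains the germinal centre, nonetheless stood at 7.82, 9.19 and 9.93 in MZL and 7.45, 8.79 and 11.58 in DLBCL, a difference of +0.28 ± 0.36 (SE, p = 0.436). RGS13, a germinal centre regulator of chemokine signalling, differed by -0.53 ± 0.66 (SE, p = 0.423) and MME, which encodes CD10, by -0.06 ± 0.094 (SE, p = 0.524). The list mean kept within 7.46 to 7.61 in MZL, whereas DLBCL ran from 7.30 to 8.23. Genes of activated B-cell-like DLBCL were split evenly, with 12 of 23 higher in MZL. Of 13 measured genes of B-cell identity 8 had the lower mean in MZL, with a median of -0.11, which was 0.021 without MZL dog 4. Their list means were 9.32 to 9.98 in MZL and 8.66 to 10.44 in DLBCL. MS4A1 (CD20), a marker of mature B cells at large, had the highest difference of that list, +0.24 ± 0.43 (SE, p = 0.572). It stood at 12.19, 12.73 and 13.34 in MZL and 6.96, 12.74 and 13.79 in DLBCL.

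**Figure D5:**
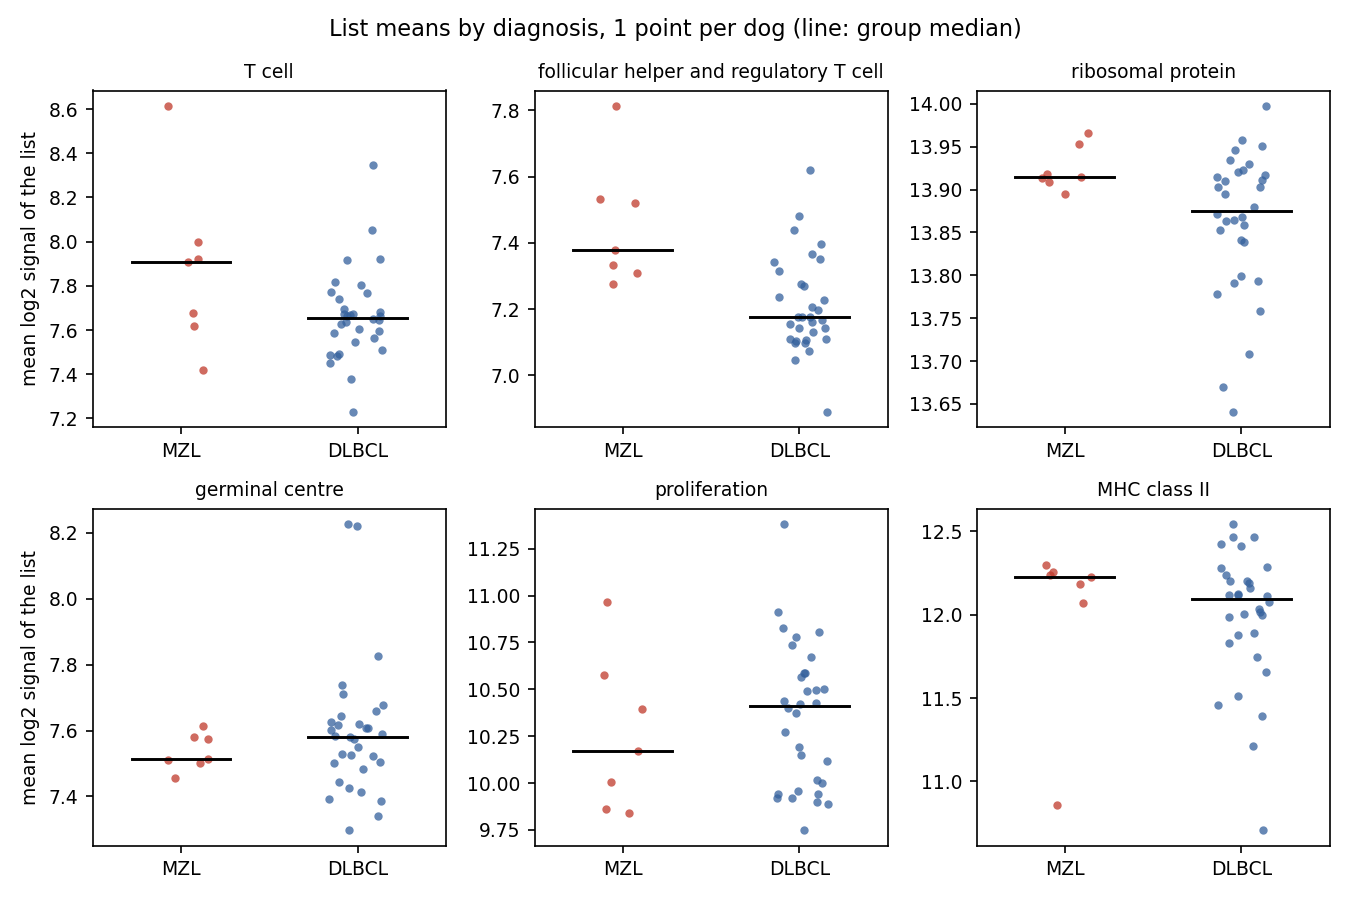
Mean log2 signal of 6 gene lists, 1 point per dog, with a line at each group's median (7 MZL dogs in red, 32 DLBCL dogs in blue). All 7 MZL dogs lie above the DLBCL median for the follicular helper and regulatory T-cell list and for ribosomal proteins, and 1 MZL dog stands apart for MHC class II at 10.86.

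Of 26 lists the one with the lowest median was that of granulocytes. Of 14 granulocyte genes 11 were lower in MZL, with a median of -0.13, and MPO, the peroxidase of neutrophil granules, stood at 5.26, 5.47 and 5.86 in MZL and 5.28, 5.74 and 6.75 in DLBCL, a difference of -0.39 ± 0.16 (SE, unadjusted p = 0.0167). Leaving out 1 MZL dog at a time moved the granulocyte median between -0.22 and -0.065. Macrophage genes had a median of 0.008, which was -0.031 without MZL dog 4, with GPNMB, a glycoprotein of lipid-laden macrophages, at -0.64 ± 0.37 (SE, p = 0.093). Fibroblast and matrix genes had a median of 0.043, which was -0.0039 without MZL dog 7, and stroma of the follicle 0.039, which was -0.075 without MZL dog 4. Endothelial genes had a median of -0.023. MHC class II genes had a median of 0.015, which ran from -0.029 to 0.20 with 1 MZL dog left out, and their list mean was 10.86 in MZL dog 7 and 12.07 to 12.30 in the other 6.

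Programmes of metabolism and signalling differed by little on average. Of 41 genes of oxidative phosphorylation 30 had the higher mean in MZL, with a median of 0.045 that became -0.016 with array quality weights. Of 22 genes of glycolysis and hypoxia 13 were lower, and EGLN3, an oxygen sensor that hypoxia induces, stood at 6.83, 7.72 and 8.04 in MZL and 7.08, 7.81 and 8.81 in DLBCL, a difference of -0.38 ± 0.17 (SE, unadjusted p = 0.0314). Among dogs with ongoing IGHV mutation alone EGLN3 differed by -0.015 (p = 0.934). For interferon-induced genes the median was -0.083, but 0.075 without MZL dog 6 and 0.033 without MZL dog 7, and MX1, an antiviral GTPase, exceeded 10 in 5 of 7 MZL and 28 of 32 DLBCL dogs. B-cell receptor signalling had a median of -0.037, which was 0.036 without MZL dog 4, with CD79A, a chain of the receptor, at -0.53 ± 0.38 (SE, p = 0.173). Medians were -0.023 for naive and resting B cells, -0.023 for red cell genes and -0.002 for the BCL2 family, where BCL2 itself differed by -0.11 ± 0.20 (SE, p = 0.587).

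Beyond a doubling of the mean lay 14 genes, 0.0926% of those tested, 9 higher and 5 lower in MZL, and 9 of the 14 had an unadjusted p of 0.05 or more. They were singled out after their values had been seen. Apart from TOX, CAPN2 and the receptor segments, most were high in some dogs and low in others of the same diagnosis. PYGL, liver glycogen phosphorylase, stood at 5.08, 6.25 and 11.05 in MZL and 4.78, 9.52 and 11.66 in DLBCL, and signals above 8 were found in 3 of 7 MZL and 24 of 32 DLBCL dogs (difference -1.56 ± 0.84 (SE), p = 0.0708). TFAP2B, a transcription factor of neural crest and kidney, exceeded 7 in 3 of 7 MZL and 23 of 32 DLBCL dogs (difference -1.55 ± 0.87 (SE), p = 0.0822).

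Some other genes of this kind passed the level counted in all MZL dogs but not in all DLBCL dogs, or in no MZL dog but in some DLBCL dogs. These levels differed from gene to gene, and the genes had already been singled out by their values. FZD6, a Wnt receptor, exceeded 8 in 7 of 7 MZL and 25 of 32 DLBCL dogs, and OLFM1, a secreted glycoprotein, exceeded 9 in the same numbers, 7 of 7 and 25 of 32. The differences were +1.06 ± 0.87 (SE, unadjusted p = 0.228) for FZD6 and +1.02 ± 0.69 (SE, unadjusted p = 0.147) for OLFM1. Only 3 of 7 MZL dogs were above the DLBCL median for FZD6, against 7 of 7 for OLFM1. CA2, a carbonic anhydrase, exceeded 7 in 0 of 7 MZL and 8 of 32 DLBCL dogs, and GTSF1, a germline protein of the piRNA pathway, exceeded 8 in 0 of 7 and 10 of 32. The differences were -1.09 ± 0.78 (SE, unadjusted p = 0.17) for CA2 and -1.08 ± 0.79 (SE, unadjusted p = 0.179) for GTSF1. The highest MZL signal of GTSF1, 7.84, was just below the level counted and above the DLBCL median of 6.29. SHTN1, which shapes neurites, followed neither pattern and exceeded 7 in 5 of 7 MZL and 12 of 32 DLBCL dogs (difference +1.11 ± 0.58 (SE), p = 0.0616). Its difference was +0.041 (p = 0.962) among ongoing dogs alone and +1.52 (p = 0.0132) with the mean of the T-cell list added as a covariate. GPR171, a receptor of T cells among other tissues, gave 7.68, 9.12 and 10.96 in MZL and 6.58, 8.10 and 10.65 in DLBCL, a difference of +1.00 ± 0.40 (SE, unadjusted p = 0.0163). Its highest MZL signals were in dogs 1, 7 and 4, at 10.96, 10.16 and 10.13. With the mean of the T-cell list added as a covariate its difference was +0.78 (p = 0.067).

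Because the states of IGHV mutation were spread unevenly over the diagnoses, the comparison was repeated within the 16 dogs in which it was ongoing, 4 with MZL and 12 with DLBCL. Again 0 genes passed after adjustment (limma, smallest adjusted p = 0.702). At an unadjusted p under 0.05 there were 477 genes, 195 higher and 282 lower in MZL, of which 48 were among the 176 of the full comparison. ZFPM2 differed by +1.04 (p = 0.00254) in these dogs, BCHE by +0.98 (p = 0.0049), SH2D1A by +1.02 (p = 0.0229), MID2 by -0.89 (p = 0.00769) and REL by -0.71 (p = 0.0285). TOX differed by +1.55 (p = 0.0643) and CAPN2 by -1.19 (p = 0.0349). Others did not reach an unadjusted p under 0.05 there, among them DNAJB11 at +0.10 (p = 0.266), CTLA4 at +0.57 (p = 0.0809), CEACAM1 at -0.14 (p = 0.154) and UPB1 at -0.50 (p = 0.183). The beta constant regions LOC609053 and LOC480788 differed by +0.77 (p = 0.113) and +0.73 (p = 0.107). Of the 12 named genes with the smallest p in each direction, 24 in all, 24 kept their sign in these dogs and 11 reached an unadjusted p under 0.05. Over all genes 3.16% reached that threshold in these dogs. The 24 genes were chosen by their p in the full comparison, which holds the same 16 dogs. Their kept signs are therefore no independent check.

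The labels also hold the times to progression and death, without a unit, together with an indicator read here as 1 for an event. Progression-free time was given for 6 MZL and 30 DLBCL dogs, with 4 and 27 events, and its Kaplan-Meier medians were 254 and 178. MZL had 2.29 events fewer than the 6.29 expected under a common hazard (exact permutation log-rank test, two-sided p = 0.267). Overall survival was given for 7 and 30 dogs, with 5 and 23 deaths and medians of 470 and 240, and MZL had 1.97 events fewer than expected (exact permutation, two-sided p = 0.337). Neither test reached 0.05. Among dogs with ongoing IGHV mutation alone, 4 with MZL and 12 with DLBCL, the overall survival medians were 470 and 493, in the opposite order. MZL dogs 4 and 7 had the shortest times to progression of their group, 104 and 67, and MZL dogs 5 and 6 had no event, at 332 and 625.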

How the data were processed

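Gene expression was measured in 58 biopsies on an Affymetrix array, and the 39 lymph node arrays with a diagnosis were analysed. Per the submitters' processing notes, the authors used Affymetrix Expression Console and RMA. RMA corrects background, equalises the distributions of the arrays and summarises probes, so differences common to most genes are removed. The deposited values are log2 signals. No source used here names a genome build. No pair of arrays was identical.

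The platform annotation, which can be old, gave 1 symbol to 29254 of 43035 probe sets, several to 439 and none to 13231, besides 111 controls. Each of 15115 genes was represented by its brightest probe set, judged by the mean of all arrays. Signal was not tested against background. RefSeq's gene table (UU_Cfam_GSD_1.0) gave segment classes and neighbouring genes only.

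Groups were compared with limma 3.58.1 (R 4.3.3; lmFit, eBayes) over all genes, diagnosis being the only term, with Benjamini-Hochberg adjustment at 0.05. The script was tested on simulated data. P-values marked unadjusted rank genes and call none. Dogs are numbered in the order of the deposit, and survival was compared by exact permutation of the log-rank statistic. The exact rank-sum p-values do not allow for ties, present in 512 genes.

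Named were the 12 genes of smallest p in each direction (LOC symbols left out) and the 3 of smallest p in each of 26 lists. Added were 16 preset genes, of which 13 were measured. Genes outside this rule are said to be so or are other list members. Of these, LEF1, CD8B, TRAT1 and TNFRSF4 were given for their unadjusted p. Their values in the alternatives and without single dogs were not followed. The genes and lists were chosen with earlier results of these data known. Alternatives varied the IGHV term, the dogs, the weights, the variance prior, the probe sets, the level filter, the centring and a T-cell covariate, and left out each MZL dog. The lists held 662 genes, of which 550 were measured.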

Additional observations from a re-analysis of the deposited data

Results flagged for a closer look

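Within the 7 MZL dogs, 13 of 155 gene signals and list means had 1 dog far from the other 6 by Dixon's test at the 95% level. For unselected, independent items chance alone marks about 1 in 20. Many of these genes were chosen by the same values, and the lists share genes with them. The 13 therefore cannot be set against that rate. MZL dog 7 was far above the rest for LUM, a matrix proteoglycan, at 7.47 (next 5.20), and for GPNMB, at 9.37 (next 7.91). The same dog was far below the rest for the mean of the MHC class II list, at 10.86 (next 12.07). Its IGHV mutation was labelled static, the only such state among the MZL dogs.

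MZL dog 4 was highest for the node chemokine CCL19, at 9.64 (next 7.67), and for the lambda segment LOC606893, at 6.97 (next 5.71), and lowest for SYK, a kinase of B-cell receptor signalling, at 10.18 (next 11.33). MZL dog 6 was lowest for LRFN2, at 5.71 (next 5.89), for SATB1, at 7.35 (next 8.21), and for SPPL2A, at 9.61 (next 9.93), and highest for the hypoxia gene NDRG1, at 6.30 (next 6.06). MZL dog 1 was highest for PHLDB2, at 5.72 (next 5.28), and for SULT1B1, at 6.26 (next 5.05). MZL dog 5 was highest for the lambda segment LOC491363, at 6.96 (next 5.38).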

How the results depend on the processing

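In all 19 alternatives run, 0 genes passed after adjustment. The 176 genes at an unadjusted p under 0.05 became 477 in dogs with ongoing IGHV mutation alone, 416 with array quality weights, 369 of 29254 when every probe set was tested, 113 of 12460 at a mean log2 level of at least 6, and 135 to 270 when each MZL dog was left out in turn (135 without dog 3, 270 without dog 2). Of 129 named genes 113 kept their sign in every alternative that gives a difference, and 13 of 26 list medians did so. The changes of sign were at differences that had not passed. With the T-cell covariate the differences were CCL19 -0.0082, CCL21 -0.039, CD14 -0.050, LOC483072 -0.0074 and PECAM1 +0.012. In dogs with ongoing mutation alone they were COL1A1 -0.16, CXCR3 -0.099, IFI30 -0.42 and PRDM1 -0.035. With an IGHV term the difference of IFI30 was -0.15. With array weights that of LOC483072 was -0.026. With probe sets averaged they were LOC486377 +0.86 and PHLDB2 -0.051. Leaving out each MZL dog in turn gave ranges of CCL19 -0.096 to +0.33, CCL21 -0.072 to +0.25, CD14 -0.014 to +0.084, LOC483072 -0.014 to +0.065, LOC486377 -0.10 to +0.0069, LOC491494 -0.0040 to +0.12, LOC607343 -0.067 to +0.17, LOC608238 -0.080 to +0.037, LOC612168 -0.061 to +0.0092, LUM -0.034 to +0.43 and PECAM1 -0.50 to +0.092. The cause of these changes was not tested. Log-rank differences of observed and expected events kept their sign. For progression-free time the exact permutation p was 0.377 in ongoing dogs and 0.0993 to 0.903 with 1 MZL dog left out. For overall survival it was 0.823 and 0.169 to 0.704. In ongoing dogs MZL had only 0.30 deaths fewer than expected, and its median survival of 470 was below the 493 of DLBCL. Array signals carry no depth, and low signals were not separated from background. No paired analysis was possible because each dog gave 1 array and the labels hold no number shared between groups.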

Other observations

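The 19 fine needle aspirates, whose dogs have no diagnosis in the labels, belong to neither group. Over these arrays the lowest, median and highest log2 signals of TOX were 5.03, 6.48 and 9.67, and those of CAPN2 were 7.96, 9.39 and 11.44. The T-cell receptor beta constant region LOC609053 gave 3.98, 5.57 and 9.67. The heavy chain segment LOC607467 gave 7.09, 10.81 and 14.50, a range as wide as that within each diagnosis of the lymph node arrays. For MYC the values were 9.03, 11.15 and 11.95 and for NMNAT1 7.41, 8.27 and 8.87.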
